A study of Mus musculus with 6 samples.

Results

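The 9 genes Srebf1, Srebf2, Scap, Insig1, Insig2, Nr1h2, Abca1, Abcg1 and Mylip govern how a cell senses and moves cholesterol. They were taken by symbol from a table of read counts for 43346 genes. Each symbol matched 1 row of that table, and all 9 rows had enough reads to be tested. The counts come from primary mouse embryonic fibroblasts (MEFs) of C57BL/6 mice at passage 9. MEFs are connective tissue cells grown out of mouse embryos. Cells were given 3 µM erastin or the solvent DMSO for 24 h, with 3 libraries for each treatment and 6 in all. Erastin blocks the cystine/glutamate antiporter and is used to induce ferroptosis, a death driven by iron-dependent lipid peroxidation. Every culture, with or without erastin, grew in medium with serum, which carries lipoproteins, and with 2-mercaptoethanol. Whether the 3 libraries of a treatment came from separate cultures is not given in the sources used here, so p-values measure only the spread between these samples, which may be technical.

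SREBPs are transcription factors made as membrane proteins of the endoplasmic reticulum. When sterols run low, the escort protein SCAP carries them to the Golgi, where the proteases encoded by Mbtps1 and Mbtps2 release the active factor, which switches on genes of sterol and fatty acid synthesis. When sterols are plentiful, the INSIG proteins hold SCAP back. Liver X receptors (LXRs), of which Nr1h2 encodes LXRβ, are nuclear receptors that bind oxysterols and induce the cholesterol exporters Abca1 and Abcg1, the Srebf1 gene, and Mylip, whose product IDOL marks lipoprotein receptors for degradation.

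Stretches of DNA upstream of some of these genes carry letters known as binding elements of transcription factors. Those shown belong to members that took different courses with erastin, and a link between letters and course was not tested. The RefSeq table of promoters (GRCm38.p6) held 13 start sites for 8 of the 9 members, all but Abcg1. The 250 bases before each start were searched on both strands for 4 motifs: a short form of the sterol regulatory element (TCACNCCA), the E-box CACGTG, the CCAAT box bound by NF-Y, and a relaxed form of the LXR element made of direct repeats (GGTNA, any 5 bases, GGTNA). Over all 32851 windows of this length in the table these were present in 3.67%, 6.02%, 33.8% and 0.621%, in the same order. Motif matches are in capitals below, and each stretch is written 5′ to 3′ on the gene's strand and ends where annotated exon begins, if that comes before the start site.
Srebf2, chr15:82147019-82147180, plus strand: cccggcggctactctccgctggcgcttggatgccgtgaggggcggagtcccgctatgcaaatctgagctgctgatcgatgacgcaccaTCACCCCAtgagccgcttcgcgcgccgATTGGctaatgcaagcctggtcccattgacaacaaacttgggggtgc
Insig1, chr5:28071162-28071362, plus strand: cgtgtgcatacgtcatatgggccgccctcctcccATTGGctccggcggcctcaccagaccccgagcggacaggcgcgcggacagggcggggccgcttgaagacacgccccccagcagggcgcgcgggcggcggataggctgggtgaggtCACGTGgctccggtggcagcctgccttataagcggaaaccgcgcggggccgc
Insig2, chr1:121332590-121332839, minus strand: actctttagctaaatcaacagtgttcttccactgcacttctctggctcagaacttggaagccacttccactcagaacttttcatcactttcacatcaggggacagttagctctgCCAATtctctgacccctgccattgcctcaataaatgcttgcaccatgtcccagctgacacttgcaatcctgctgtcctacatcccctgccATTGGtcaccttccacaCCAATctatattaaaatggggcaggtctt
Mylip, chr13:45389492-45389741, plus strand: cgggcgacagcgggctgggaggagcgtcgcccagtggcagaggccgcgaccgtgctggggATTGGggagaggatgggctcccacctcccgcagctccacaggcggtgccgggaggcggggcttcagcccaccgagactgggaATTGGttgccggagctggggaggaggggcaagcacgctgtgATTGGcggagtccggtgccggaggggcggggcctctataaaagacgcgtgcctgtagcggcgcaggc
Abca1, chr4:53159896-53160145, minus strand: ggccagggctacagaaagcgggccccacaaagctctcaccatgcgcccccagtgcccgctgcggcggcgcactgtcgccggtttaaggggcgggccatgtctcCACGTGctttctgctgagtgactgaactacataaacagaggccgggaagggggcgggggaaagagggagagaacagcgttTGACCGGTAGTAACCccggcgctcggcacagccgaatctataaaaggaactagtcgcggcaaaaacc
Srebf1, chr11:60210472-60210721, minus strand: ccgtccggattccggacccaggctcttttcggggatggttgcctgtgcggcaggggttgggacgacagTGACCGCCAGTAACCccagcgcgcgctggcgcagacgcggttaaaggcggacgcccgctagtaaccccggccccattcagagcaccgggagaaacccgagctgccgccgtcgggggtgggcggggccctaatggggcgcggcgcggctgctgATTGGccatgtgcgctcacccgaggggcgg

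The short form of the sterol element was found upstream of Srebf2 alone among the 13 windows. It read TCACCCCA, beginning 162 bases before the start, with an inverted CCAAT box at 135. Other forms of the sterol element were not searched for, so windows without this match may still hold one. Insig1 had an inverted CCAAT box at 216 and an E-box at 101 bases before its start. Mylip had 3 inverted CCAAT boxes, at 190, 108 and 67. The LXR-type element was found at 67 bases before the start of Abca1 and at 182 before the innermost of the 3 starts of Srebf1, in both cases on the opposite strand. Of the 3 Insig2 starts, the outermost, shown above, had 3 CCAAT boxes, and the other two had no match to any of the 4 motifs. Nr1h2 had none, Scap had an E-box before 1 of its 2 starts, and the outermost Srebf1 start had 1 CCAAT box. The Scap E-box lies 40 bases before that start but inside the annotated gene, which begins at 110333288. A match describes the letters only, and the counts per gene do not say which start was used.

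Total counts per library ran from 13333911 to 20509970. Replicates differed by more than sampling noise (chi-square per degree of freedom 11.0 to 19.2 within groups, 78.0 to 122.8 between them), so each library was counted as 1 replicate. Slc7a11, a subunit gene of the antiporter named above, stood at 11.5 to 16.1 CPM (counts per 1000000 of the TMM-scaled library total) in DMSO and 141 to 219 CPM in erastin libraries. The stress-induced heme oxygenase gene Hmox1 stood at 177 to 191 and 2101 to 3186 CPM. The fibroblast label was checked with 12 markers, all detected, whose summed level was 31480 to 32639 CPM in DMSO and 18872 to 21063 CPM in erastin libraries; 11 of the 12 were lower with erastin at an adjusted p under 0.05. All 10 macrophage markers had reads, with summed levels of 28.5 to 56.7 CPM in DMSO and 30.8 to 63.6 CPM with erastin. Of these 10 markers 2 were lower with erastin, and their log2 fold changes ran from -2.03 to 1.06. Of all genes tested, 21.5% were lower and 21.6% higher at an adjusted p under 0.05. Endothelial markers summed to 5.15 to 7.70 and 14.1 to 17.6 CPM (Kdr and Tek were higher with erastin), and epithelial markers to 2.18 to 3.24 and 2.17 to 3.71 CPM. Adipocyte markers summed to 7.42 to 15.3 and 14.6 to 19.9 CPM, with the fat cell genes Adipoq and Cidec at 0 reads in all 6 libraries. Of the 2 adipocyte markers tested, Pparg was higher with erastin (log2 fold change 0.94) and Fabp4 did not pass (-0.49). The part of these marker levels in the results below was not tested, and in bulk RNA fewer cells of a type and less RNA per cell cannot be told apart.

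With erastin the transcripts of both SREBPs, of SCAP, of INSIG1 and of the ubiquitin ligase IDOL were lower, and that of INSIG2 was higher. Of the 9 members 6 passed at an adjusted p under 0.05, with 5 lower and 1 higher (edgeR quasi-likelihood test, adjusted over all 14000 genes tested). The background is high, since 43.0% of all genes tested passed, 21.5% as lower and 21.6% as higher. In 7 of the 9 members the 3 erastin libraries lay wholly on one side of the 3 DMSO libraries, against 52.5% of all genes tested: 5 members lay below, against 25.9%, and 2 above, against 26.7%. The median log2 fold change of the members was -0.39, beside -0.0014 for all genes tested. The exporters Abca1 and Abcg1 and the receptor gene Nr1h2 did not pass.

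**Figure D1:**
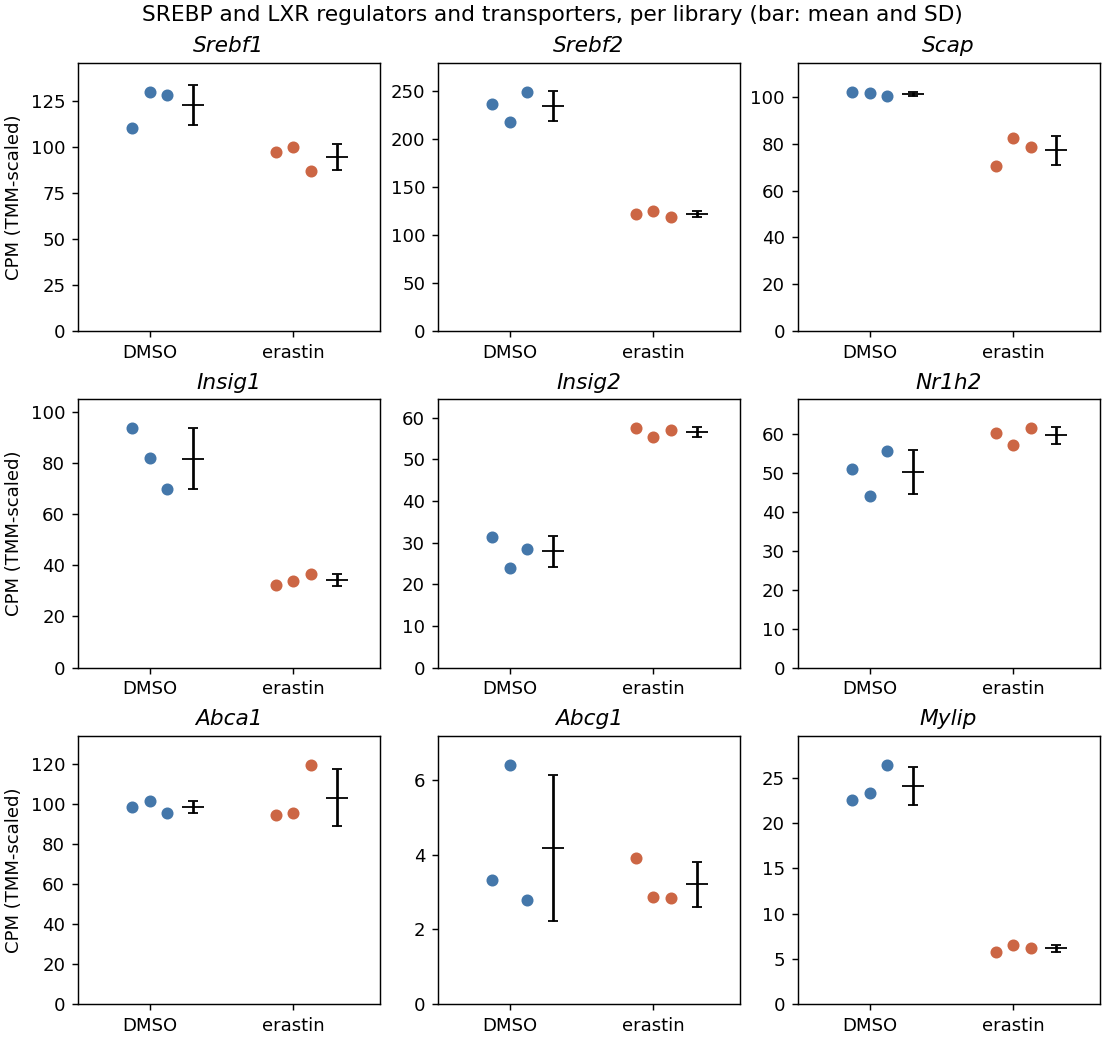
Level of each of the 9 genes in every library, in CPM on a linear axis that starts at 0 and differs between panels; points are libraries (3 DMSO, 3 erastin) and the bar beside them is the mean with its SD. The groups overlap for Abca1 and Abcg1, and in the other 7 panels they do not.

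Srebf2 (ENSMUSG00000022463.7; chromosome 15, 82147181 to 82205379, plus strand, GENCODE M21 on GRCm38) encodes SREBP-2, the isoform that mainly drives sterol synthesis genes. It stood at 237, 218 and 249.5 CPM in DMSO replicates 1, 2 and 3, and at 122, 125.5 and 119 CPM in the erastin replicates. All 3 erastin libraries were far below the lowest DMSO library and close to each other. The fall was 0.94 on the log2 scale, which left 52.1% of the DMSO level (log2 fold change -0.94, SE 0.077, edgeR adjusted p = 2.07e-07). Of all genes tested, 10.2% had a lower log2 fold change. The microRNA gene Mir33, which lies in an intron of Srebf2 and whose product is known to act on Abca1, had 0 reads in each of the 6 libraries. With 3 counts as the limit that a count of 0 allows, this corresponds to at most 0.139 to 0.233 CPM of counted reads. Library fragments were selected by size and the gene spans 69 bases, so these counts set no limit on the level of the microRNA.

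Srebf1 (ENSMUSG00000020538.11; chromosome 11, 60199089 to 60222581, minus strand) encodes SREBP-1a and SREBP-1c, which differ in their first exon, favour fatty acid synthesis genes in the case of SREBP-1c, and cannot be separated in counts per gene. It was at 110, 130.1 and 128 CPM in DMSO and at 97.4, 100.2 and 86.8 CPM in erastin libraries. The groups did not overlap, but the lowest DMSO library, replicate 1, was only slightly above the highest erastin library. The fall passed and was smaller than that of Srebf2 (log2 fold change -0.37, SE 0.091, edgeR adjusted p = 0.00393). Of all genes tested, 27.2% had a lower value. Exons of Rai1 on the other strand overlap 109 of the 5634 exon bases of Srebf1, and the microRNA gene Mir6922 overlaps 66.

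The unequal change of the SREBP genes was tested inside each library, as the ratio of Srebf1 to Srebf2 counts per kb of exon. This ratio was 0.594, 0.760 and 0.655 in DMSO and 1.02, 1.02 and 0.928 in erastin libraries. The SREBP-2 transcript was thus the more abundant per length in all 3 DMSO libraries, and with erastin the pair stood about level. The log2 ratio differed by 0.57 (from -0.59 ± 0.18 to -0.019 ± 0.077, SD, n = 3; exact two-sided permutation p = 0.1, 0.15 adjusted over 3 ratios). With 3 against 3 libraries 0.1 is the smallest p this test can give, so it cannot pass 0.05.

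Scap (ENSMUSG00000032485.10; chromosome 9, 110333288 to 110384950, plus strand), the escort that carries SREBPs to the Golgi, was at 102, 101 and 100.2 CPM in DMSO. It was at 70.4, 82.5 and 78.5 CPM in erastin libraries, all below the 3 nearly equal DMSO values. The log2 fold change was -0.39 (SE 0.086, edgeR adjusted p = 0.00177). The gene 5830462I19Rik on the opposite strand overlaps 985 of its 7443 exon bases, and whether counting used strand is not given in the sources used here.

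The INSIG genes moved in opposite directions. Insig1 (ENSMUSG00000045294.10; chromosome 5, 28071363 to 28078662, plus strand) encodes the retention factor that is itself a target of SREBPs. It was at 93.6, 81.8 and 69.7 CPM in DMSO and at 32.2, 33.8 and 36.6 CPM in erastin libraries. Although the DMSO libraries were spread, the lowest of them was well above every erastin library. The log2 fold change was -1.26 (SE 0.11, edgeR adjusted p = 4.9e-07), which left 41.9% of the DMSO level.

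Insig2 (ENSMUSG00000003721.10; chromosome 1, 121304353 to 121332589, minus strand) encodes the second retention factor, which also binds SCAP but is not driven by SREBPs in the same way. It was at 31.3, 23.9 and 28.5 CPM in DMSO and at 57.5, 55.3 and 57.1 CPM in erastin libraries. It passed as higher, by 2.03-fold (log2 fold change 1.02, SE 0.11, edgeR adjusted p = 3.78e-06). All erastin libraries were tightly grouped above the DMSO libraries. Of all genes tested 6.17% had a higher log2 fold change than Insig2, and 5.82% had a lower one than Insig1.

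Per kb of exon, Insig1 exceeded Insig2 by 3.36, 3.84 and 2.74 times in the DMSO libraries, and the ratio was 0.628, 0.686 and 0.720 in the erastin libraries. The more abundant INSIG transcript was therefore Insig1 in every DMSO library and Insig2 in every erastin library. The log2 ratio went from 1.71 ± 0.24 to -0.56 ± 0.10 (SD, n = 3), a difference of -2.28 or 4.85-fold (exact two-sided permutation p = 0.1, the smallest possible; 0.15 adjusted over 3 ratios). The sum of the pair moved less than either gene, from 39.3, 33.3 and 30.7 CPM per kb in DMSO to 27.0, 26.8 and 28.3 CPM per kb with erastin (exact two-sided permutation p = 0.1, the smallest possible). The difference in the ratio stayed between -2.41 and -2.16 when single libraries were left out.

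**Figure D2:**
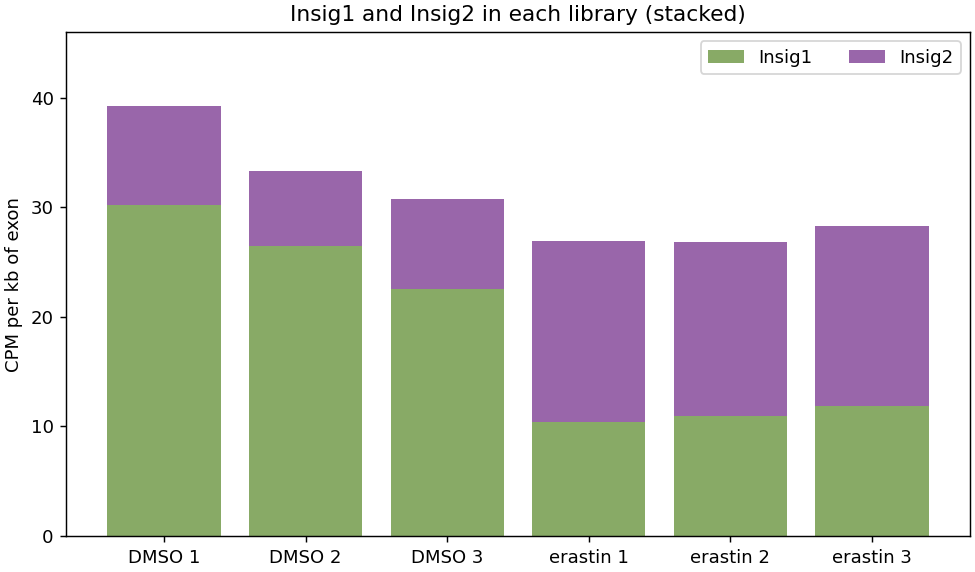
Stacked level of Insig1 (green, below) and Insig2 (purple, above) in each library, in CPM per kb of exon from 0. The green part shrinks from 22.5 to 30.3 in DMSO to 10.4 to 11.8 with erastin while the purple part grows from 6.89 to 9.02 to 15.9 to 16.6.

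Nr1h2 (ENSMUSG00000060601.8; chromosome 7, 44549616 to 44553951, minus strand) encodes LXRβ, the LXR found in most tissues. It was at 50.9, 44.2 and 55.5 CPM in DMSO and at 60.3, 57.2 and 61.5 CPM in erastin libraries. All 3 erastin libraries were above all DMSO libraries, by a small margin, and the test did not pass (log2 fold change 0.25, SE 0.10, 95% confidence interval 0.035 to 0.47, edgeR adjusted p = 0.0585). It passed as higher without DMSO replicate 3 (0.33, edgeR adjusted p = 0.0205), and with 3 other settings given in the closing section, among them a correction for GC content and length (0.42, edgeR adjusted p = 0.00252). Over its 15 alternatives the adjusted p ran from 0.00181 to 0.256.

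Abca1 (ENSMUSG00000015243.4; chromosome 4, 53030787 to 53159895, minus strand) encodes the transporter that passes cholesterol and phospholipid to lipid-poor apolipoproteins and is a standard readout of LXR activity. It was at 98.6, 101.7 and 95.8 CPM in DMSO and at 94.5, 95.8 and 119.9 CPM in erastin libraries. Only erastin replicate 3 stood apart, above all others, while the other 2 erastin libraries lay close to the lowest DMSO value; the macrophage markers summed lowest in that erastin library (30.8 CPM, against 63.5 and 63.6 in the other two), and their part in the result was not tested. The difference did not pass (log2 fold change 0.067, 95% confidence interval -0.14 to 0.28, edgeR adjusted p = 0.618). Without erastin replicate 3 the log2 fold change was -0.050 (edgeR adjusted p = 0.689).

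Abcg1 (ENSMUSG00000024030.6; chromosome 17, 31057675 to 31117988, plus strand), which exports cholesterol to mature HDL particles, was barely expressed. It had 44, 116 and 36 reads in the DMSO and 84, 48 and 55 reads in the erastin libraries, or 3.32, 6.42 and 2.80 against 3.91, 2.87 and 2.85 CPM. DMSO replicate 2 was the highest, and the remaining 5 libraries overlapped. In the DMSO group the macrophage markers, too, summed highest in replicate 2 (56.7 CPM, against 42.9 and 28.5 in replicates 1 and 3), and their part in the result was not tested. No difference was detectable at this depth (log2 fold change -0.39, SE 0.37, 95% confidence interval -1.19 to 0.41, edgeR adjusted p = 0.429), and without DMSO replicate 2 the log2 fold change was 0.072 (edgeR adjusted p = 0.912). The ratio of Abca1 to Abcg1 did not differ beyond its spread either (log2 difference 0.36, exact two-sided permutation p = 0.5); without DMSO replicate 2 it was 0.023.

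Mylip (ENSMUSG00000038175.9; chromosome 13, 45389742 to 45412022, plus strand) showed the largest change of the 9 genes. Its product IDOL removes lipoprotein receptors, among them those encoded by Vldlr and Lrp8, from the cell surface. It was at 22.6, 23.4 and 26.5 CPM in DMSO and at 5.77, 6.58 and 6.16 CPM in erastin libraries. The groups were widely separated and tight, on 299 to 422 reads in DMSO and 110 to 124 reads in erastin libraries. The level was 3.91-fold lower with erastin (log2 fold change -1.97, SE 0.16, edgeR adjusted p = 2.53e-07). Of all genes tested, 2.23% had a lower log2 fold change. Mylip is known as an LXR target like Abca1, and the 2 genes had log2 fold changes of -1.97 and 0.067.

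**Figure D3:**
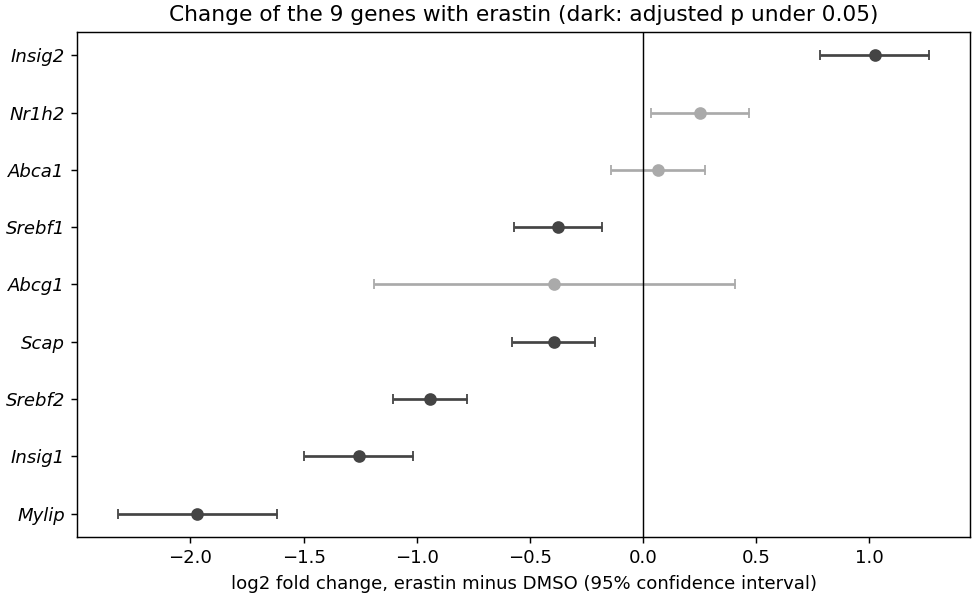
Log2 fold change of each of the 9 genes (erastin minus DMSO) with its 95% confidence interval, sorted; dark points passed at an adjusted p under 0.05 and grey ones did not. The intervals run from -2.32 to -1.62 for Mylip at the bottom to 0.78 to 1.26 for Insig2 at the top.

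Levels of different genes were compared per kb of exon. In DMSO the order from highest to lowest was Srebf2 (32.7 ± 2.19 CPM per kb, SD, n = 3), Insig1 (26.4 ± 3.87), Srebf1 (21.8 ± 1.94), Nr1h2 (15.0 ± 1.70), Scap (13.6 ± 0.135), Abca1 (9.52 ± 0.286), Insig2 (8.04 ± 1.08), Mylip (7.47 ± 0.645) and Abcg1 (0.573 ± 0.268). Neighbours whose libraries overlapped were Insig1 and Srebf1, Nr1h2 and Scap, and Insig2 and Mylip. With erastin the top of the order was Nr1h2 (17.8 ± 0.663 CPM per kb, SD, n = 3), Srebf2 (17.0 ± 0.435), Srebf1 (16.8 ± 1.25) and Insig2 (16.3 ± 0.337), each overlapping the next. Below them came Insig1 (11.1 ± 0.727), Scap (10.4 ± 0.826) and Abca1 (9.98 ± 1.38), again each overlapping the next, then Mylip (1.91 ± 0.125) and Abcg1 (0.440 ± 0.0828). The wide range among the SREBP, INSIG and SCAP genes in DMSO, from 8.04 to 32.7 CPM per kb, was thus narrower with erastin, from 10.4 to 17.0.

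Among genes that SREBPs are known to drive, most were lower. Of 20 sterol synthesis enzymes 19 were lower and 0 higher in the edgeR test, beside 21.5% lower and 21.6% higher of all genes tested. Their median log2 fold change was -1.24, beside -0.0014 for all genes tested. Among the larger falls were those of Mvk (-2.01), Hmgcs1 (-1.98), Cyp51 (-1.57) and Mvd (-1.55). Ebp did not pass (-0.41, edgeR adjusted p = 0.163).

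Of 16 other SREBP targets, most of which serve fatty acid synthesis, 13 were lower and 1 higher, beside 21.5% and 21.6% of all genes tested. Their median log2 fold change was -0.92. Stard4, a sterol carrier gene, was lower (log2 fold change -1.43). Among the fatty acid genes Fads2 (-1.73), Scd2 (-1.69), Scd1 (-1.12) and Fasn (-0.84) were lower. The exception was Me1, the NADPH-forming malic enzyme, also known as a target of NRF2, which was higher (0.47, edgeR adjusted p = 0.000837). That these lists were lower had been seen in these data before the lists were drawn up.

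**Figure D4:**
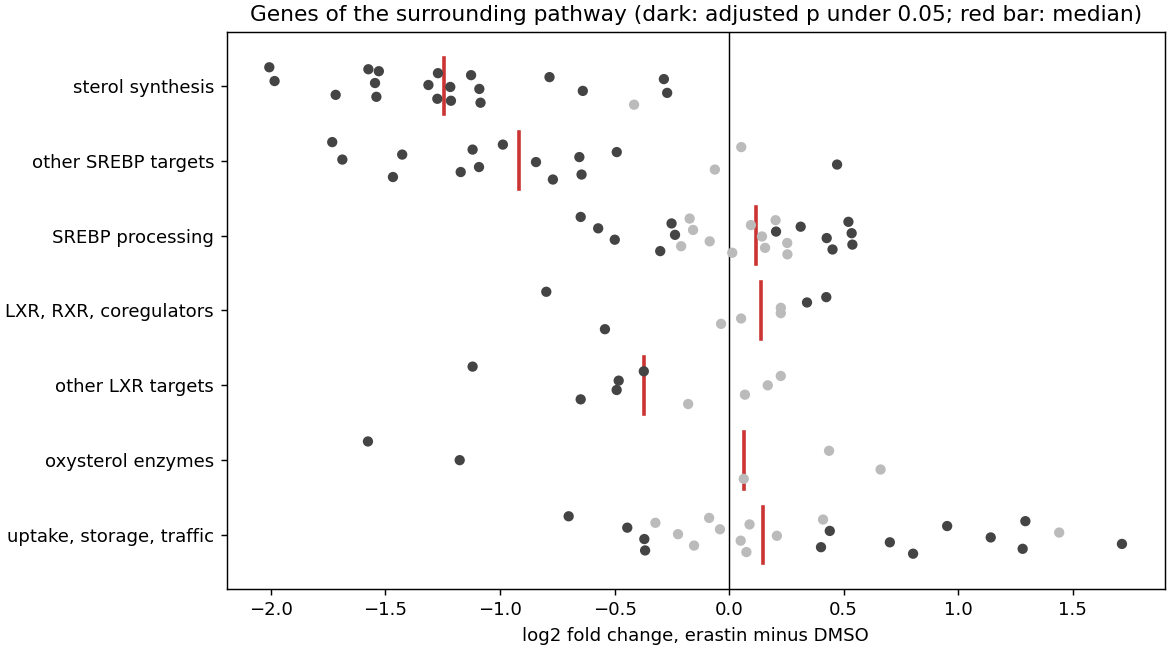
Log2 fold change (erastin minus DMSO) of each tested gene in 7 lists around the 9 members; dark points passed at an adjusted p under 0.05, grey ones did not, and the red bar is the list's median. The first 2 lists lie almost wholly left of 0, with medians of -1.24 and -0.92, and the uptake, storage and traffic list reaches farthest right.

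Of 24 genes of the machinery that moves and cuts SREBPs, 7 were higher, 6 lower and 11 did not pass, shares near the 21.6% higher and 21.5% lower of all genes tested. The balance turned with the scaling, from 10 higher and 4 lower with library totals only to 6 higher and 8 lower with the GC and length correction. The median log2 fold change, 0.12, was 0.19 and 0.0071 under these settings and 0.066 with upper-quartile factors. The protease gene Mbtps2 was higher, at 29.0 ± 3.54 CPM against 19.96 ± 1.98 in DMSO (± SD over n = 3 libraries, log2 fold change 0.54, edgeR adjusted p = 0.00539), while Mbtps1, whose product makes the first cut, was at 257 ± 20.4 CPM in DMSO and 228 ± 22.1 CPM with erastin and did not pass (edgeR adjusted p = 0.124). The gene 2410131K14Rik, whose product matures that first protease, was higher (0.54), as was Ufd1 (0.52), of the machinery that extracts INSIG1 for degradation. The COPII coat gene Sec24d was lower (-0.57), and so was Rnf145 (-0.65), which encodes an LXR-induced ligase that acts on SCAP.

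Nr1h3, encoding LXRα, was rare, at 2.14 ± 0.414 CPM in DMSO and 2.48 ± 0.453 CPM with erastin (± SD over n = 3 libraries), and did not pass (edgeR adjusted p = 0.697). Of 8 tested genes among receptors, partners and cofactors, 2 were higher and 2 lower, again near the shares of all genes tested (21.6% and 21.5%). Rxra, the partner with which LXRs bind DNA, went from a mean of 80.4 ± 4.34 CPM in DMSO to 46.3 ± 5.63 CPM with erastin (± SD over n = 3 libraries, log2 fold change -0.80, edgeR adjusted p = 1.83e-05). The coactivator genes Ncoa1 and Ncoa2 were higher by 0.42 and 0.34; without DMSO replicate 1, DMSO replicate 2 or erastin replicate 1, or with the GC and length correction, 1 gene of this list was higher.

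Of 9 tested genes among other LXR targets 5 were lower and 0 higher, beside 21.5% lower and 21.6% higher of all genes tested. Their median log2 fold change was -0.37. The lower genes were Scd1, Rnf145, the phospholipid acyltransferase gene Lpcat3 (-0.49), Smpdl3a (-0.48) and the lipid transfer protein gene Pltp (-0.37); Scd1 is an SREBP target as well. Apoe, the apolipoprotein that fibroblasts also secrete, was at 48.1 ± 7.74 CPM in DMSO and 50.5 ± 1.92 CPM with erastin (± SD over n = 3 libraries) and, like Abca1, did not pass (edgeR adjusted p = 0.664). Of 5 tested enzymes that make or break oxysterols 2 were lower and 0 higher, beside the same shares of all genes tested (21.5% and 21.6%). The lower ones were Cyp39a1 (-1.58) and Cyp7b1 (-1.18), from 2.74 and 5.87 CPM in DMSO. The call on these 2 low genes depended on single libraries, since 0 passed without DMSO replicate 2 or without erastin replicate 2, and 1 passed without DMSO replicate 3 or without erastin replicate 1. Ch25h, which makes 25-hydroxycholesterol, was at 44.6 ± 5.73 CPM in DMSO and 46.7 ± 1.29 CPM with erastin (± SD over n = 3 libraries) and did not pass (edgeR adjusted p = 0.665).

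Of 24 tested genes that take up, store and move cholesterol inside the cell, 9 were higher, 4 lower and 11 did not pass, beside 21.6% higher and 21.5% lower of all genes tested. Their median log2 fold change was 0.15, and 0.046 without erastin replicate 2. Vldlr, the VLDL receptor gene and 1 of the IDOL substrates, went from a mean of 67.7 ± 4.80 CPM in DMSO to 222 ± 8.26 CPM with erastin (± SD over n = 3 libraries, log2 fold change 1.72, edgeR adjusted p = 1.23e-09). Another IDOL substrate, Lrp8, was at 19.2 ± 4.37 CPM in DMSO and 19.98 ± 2.29 CPM with erastin (± SD over n = 3 libraries), with overlapping libraries, and did not pass (edgeR adjusted p = 0.841). IDOL acts on the receptor proteins, while these counts measure RNA, and a link to the Mylip level was not tested. Vldlr is also expressed by endothelial and fat cells, whose marker sums are given above, and their part in the result was not tested. Npc1, which lets cholesterol out of lysosomes, went from a mean of 82.9 ± 6.91 CPM in DMSO to 183 ± 9.40 CPM with erastin (± SD over n = 3 libraries, log2 fold change 1.14, edgeR adjusted p = 9.19e-08). The sterol carrier gene Stard5 (1.29), the esterifying enzyme genes Soat2 (1.28, from only 1.92 CPM) and Soat1 (0.44), and the ester hydrolase gene Nceh1 (0.95) were higher too. The 4 lower genes were Osbpl5 (-0.70), of the oxysterol-binding protein family, Npc2 (-0.44, edgeR adjusted p = 0.000102), whose product hands cholesterol to NPC1 in the lysosome, the HDL receptor gene Scarb1 (-0.37, edgeR adjusted p = 0.0351) and the endocytic receptor gene Lrp1 (-0.37). The lysosomal partners Npc1 and Npc2 thus changed in opposite directions.

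The tested genes most like each changed member were found as the smallest distance between log2 CPM values, centred on each gene, over the 6 libraries. For Insig2 they were Eif4e (distance 0.113) and Dnajb9 (0.139), for Insig1 Gm3788 (0.146) and Tmem176b (0.149), for Srebf2 Sept9 (0.104) and Mxra8 (0.113), and for Mylip Dkk3 (0.208) and Adcy7 (0.218). For Srebf1 they were Gstp1 (0.0329) and Aspscr1 (0.0730), and for Scap Cox6a1 (0.0689) and Tbrg1 (0.0709). Those of the members that did not pass were Pde10a (0.0707) and Prpf4b (0.0717) for Nr1h2, Lsm3 (0.345) and Slc25a13 (0.415) for Abcg1, and a gene with no symbol in the annotation (0.0402) and Txndc12 (0.0965) for Abca1. None of the named genes is on the lists above, and a small distance describes these 6 libraries only.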

How the data were processed

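The deposited values are whole-number read counts per gene, 1 column for each of the 6 libraries, with no normalization; 0 columns were left unused. Per the labels' protocols, total RNA was cleared of ribosomal RNA and broken by heat, and size-selected libraries were run on an Ion Proton. HTSeq 0.9.1, SAMtools and mm10 are named in the submitters' processing notes; the aligner, the annotation and the strand setting are not given in the sources used here. Symbols, coordinates and exon lengths came from GENCODE M21 (GRCm38, the assembly also called mm10), which gave 42462 of 43346 identifiers a symbol (98.0%); a gene's exon length is that of all its exons merged.

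Groups and replicate numbers came from the sample titles. edgeR 4.0.16 in R 4.3.3 kept 14000 genes by filterByExpr (minimum count 10, minimum total 15), scaled libraries by TMM, and tested erastin against DMSO with the quasi-likelihood test, treatment as the only term and Benjamini-Hochberg adjustment over all 14000 genes. CPM are counts per 1000000 of the TMM-scaled total. SE is the log2 fold change over the square root of its F. The fits were tested on simulated data. The members and lists were chosen with earlier results of these data known. Genes named are the 9 members, up to 5 called genes of the largest change in each list, a fixed set (such as Apoe, Npc1 and Slc7a11), and the 2 genes most like each member with a mean count of at least 50; Me1, Ebp, Lrp8, Npc2, Osbpl5, Lrp1 and the cell type markers singled out were chosen after their values were seen. Some genes that this rule names are not reported here. Alternatives were RLE, upper-quartile and no scaling factors, no low-count filter, 1 CPM in 3 libraries, a replicate block, leaving out each library, DESeq2 1.42.0, an adjusted p under 0.01, glmTreat against a log2 fold change of 0.5, and an offset for GC content and exon length (mgcv 1.9.3), alone and with the block. Floors from counts cover counting error only, since the libraries were amplified by PCR. The confidence intervals of the log2 fold changes rest on the SE defined above, so they include the spread between libraries.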

Additional observations from a re-analysis of the deposited data

How the results depend on the processing

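Srebf1, Srebf2, Scap, Insig1, Insig2 and Mylip kept their direction and passed in all 15 alternatives that refit single genes and test for any change. In that order, their log2 fold changes were -0.45 to -0.31, -0.99 to -0.88, -0.45 to -0.33, -1.36 to -1.15, 0.92 to 1.11 and -2.02 to -1.90. Members higher were 2 in place of 1 (Nr1h2 added) with library totals only, with the GC and length offset alone and with the replicate block, and without DMSO replicate 3; leaving out each library gave 1 to 2 higher, 5 lower and 6 to 7 in all. Nr1h2 then had log2 fold changes of 0.32, 0.42, 0.42 and 0.33. glmTreat against 0.5 left 3 members lower in place of 5, and 2109 genes in all, 957 higher and 1152 lower, since it asks for a larger change. The main log2 fold changes of Srebf1 (-0.37) and Scap (-0.39) are smaller in size than that bound. Leaving out single libraries gave 4803 to 5809 genes, 2402 to 2955 higher and 2401 to 2862 lower. Abca1, at 0.067, was -0.031 and -0.040 with the offset without and with the block, and ran from -0.050 without erastin replicate 3 to 0.13 without erastin replicate 1. Abcg1, at -0.39, ran from -0.61 without DMSO replicate 3 to 0.072 without DMSO replicate 2. When single libraries were left out, the median of the oxysterol enzymes, 0.064, ran from -0.013 without DMSO replicate 3 to 0.17 without DMSO replicate 1; it was 0.010 with upper-quartile factors, 0.13 with library totals only, and 0.18 and 0.19 with the offset without and with the block. The uptake, storage and traffic median, 0.15, was 0.087 with the filter of 1 CPM in 3 libraries, 0.091 with DESeq2 and 0.096 with upper-quartile factors. The cause of these turns was not tested. Of 315 values computed for the 7 pathway lists, the oxysterol enzyme median without DMSO replicate 3 was the only one to turn. Of the rest, 264 stayed within 1.5 times (counts) or within their spread between replicates (medians), and 50 moved further.

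Equally numbered libraries showed no shared deviation: their deviations from the group means had correlations of 0.040, 0.0038 and -0.0055. Such values cannot tell whether the cultures were run as pairs. The replicate block gave 5883 genes in place of 6027 and the same 6 members. It cannot change the mean difference of the Insig1 to Insig2 ratio, since each replicate number occurs once in each group. Depth limits Abcg1, with 36 to 116 reads per library, and Nr1h3.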
